A study of Mus musculus with 11 samples.

Results

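The genes described here are interferon-gamma and the chemokines and receptors that bring lymphocytes to sites of interferon-gamma release. They are 9 genes chosen by symbol: Ifng, Cxcl9, Cxcl10, Cxcl11, Cxcr3, Cxcr6, Cxcl16, Xcl1 and Ccl5. Of these, 8 had a row among the 14700 genes of the deposited count table, and Cxcl11 was not analysed here. All 8 passed the filter on low counts. RNA was sequenced from whole lungs of C57BL/6 mice that were 8 weeks old at instillation. The saline group (6 libraries) received 50 µL of saline into the trachea on day 0, and the bleomycin group (5 libraries) received bleomycin at 3 U/kg in the same volume. Lungs of both groups were taken on day 3, and the labels name no engineered allele and no cell sorting. Bleomycin is a DNA-damaging glycopeptide used to injure the lung before fibrosis, and the series title concerns the role of PLAC8 in that disease. Whether each numbered sample was a separate animal is not stated in the labels, and the p-values therefore describe the spread among these libraries, which may be technical.

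Interferon-gamma is a cytokine made mainly by natural killer and T cells. It binds a receptor on most cell types and induces CXCL9, CXCL10 and CXCL11 in macrophages, endothelium and epithelium. These chemokines share the receptor CXCR3 on activated T cells and natural killer cells, which release more interferon-gamma on arrival. CXCL16 is a membrane-bound chemokine that is shed by proteases and binds CXCR6, a receptor of tissue-resident lymphocytes. XCL1, from natural killer and CD8 T cells, attracts dendritic cells that carry XCR1, and CCL5, stored by effector lymphocytes and also made by macrophages, attracts T cells and monocytes.

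Total counts were 13226339 to 19009284 per library. Levels are given as CPM, which are counts put on one scale across libraries by TMM, or as FPKM. The FPKM are scaled to gene length and total reads, without TMM factors, and are used to compare genes with one another. For one gene the 2 scales can therefore order the libraries differently. Sftpc, the surfactant protein gene of alveolar type 2 cells, was read in every library (6840 to 30370 CPM in saline, 11690 to 21850 in bleomycin). The saline group was uneven. Saline 2 and 3 had summed monocyte and macrophage markers of 4410 and 3512 CPM, against 675 to 1159 in the other saline libraries and 498 to 917 after bleomycin. They were not apart in these markers only. Listed genes induced by interferon-gamma summed to 27820 and 28520 CPM there (other saline libraries 4431 to 9300). Fibroblast markers summed to 5134 and 3589 CPM (949 to 1316), and endothelial markers to 1003 and 1349 CPM (1632 to 3602). Saline 1 and 4 had the highest summed lung epithelial markers, 155500 and 169600 CPM, against 34120 to 105000 in the other saline libraries. Most of that sum was Scgb1a1 (mean 78090 CPM in saline), followed by Sftpc (mean 14990 CPM). Leaving out saline 1 and 4 moved the log2 fold change of Scgb1a1 from -0.99 to -0.25 and that of Sftpc from 0.11 to 0.08, none of them called. The sum thus describes Scgb1a1 more than lung epithelium in general. Because the saline group was uneven, results for the 8 genes are given with all libraries. Where the call differs or the fold moves by over 1.5 times, they are also given without saline 2 and 3 or without saline 1 and 4. Libraries within each pair differed by more than sampling noise (chi-square of 17.5 per degree of freedom for saline 1 and 4, and 25.6 for saline 2 and 3, the smallest values among pairs of one group).

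Transcripts of 6 of the 8 genes fell after bleomycin and none rose, by edgeR's quasi-likelihood test with Benjamini-Hochberg adjustment over all genes at 0.05. Ifng, Cxcl9, Ccl5, Xcl1, Cxcr3 and Cxcr6 were called, while Cxcl10 and Cxcl16 did not pass. In the same test 5.7% of the 14478 genes tested were called lower and 4.63% higher. All 5 bleomycin libraries lay below all 6 saline libraries in CPM for Ifng, Xcl1, Ccl5 and Cxcr6, an arrangement found for 4.41% of all genes tested. In FPKM the groups did not overlap for Ifng, Xcl1 and Cxcr6, against 2.5% of all genes. In whole lung, fewer cells of a type and less RNA per cell cannot be told apart.

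**Figure D1:**
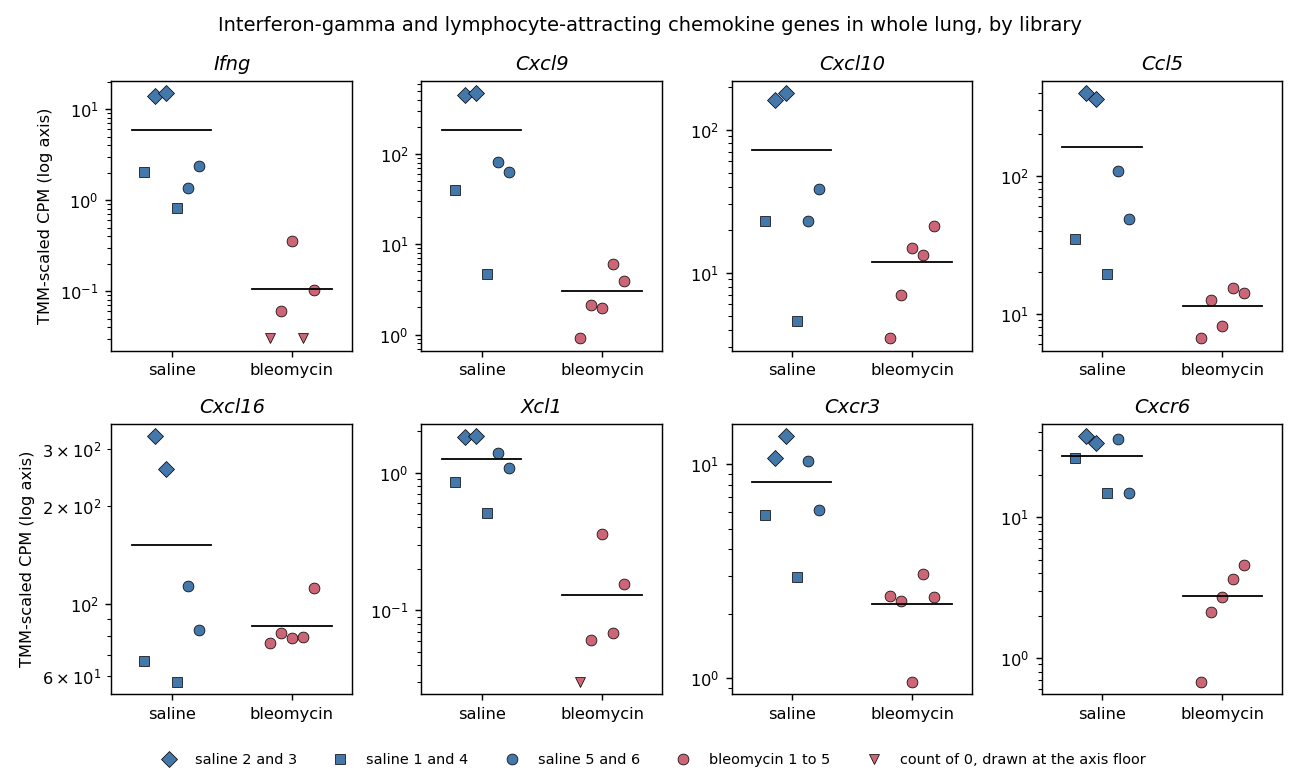
TMM-scaled CPM (log axis, a separate scale for each gene) of the 8 genes in each library, with saline on the left, bleomycin on the right and a horizontal line at each group mean. Diamonds are saline 2 and 3, squares saline 1 and 4, and triangles counts of 0 drawn at the axis floor; Ifng, Xcl1, Ccl5 and Cxcr6 have no bleomycin point at or above a saline point, and the means of Ifng, Cxcl9, Cxcl10 and Ccl5 in saline lie above the 4 saline points other than saline 2 and 3.

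Ifng, the cytokine that gives the set its name, was at 2.07, 13.9, 14.95, 0.825, 1.38 and 2.38 CPM in saline 1 to 6. After bleomycin it was at 0, 0.0606, 0.361, 0 and 0.104 CPM in libraries 1 to 5. These values rest on 13 to 237 reads per saline library and on 0, 1, 6, 0 and 2 reads in the bleomycin libraries. Every bleomycin library was thus below the lowest saline library, and saline 2 and 3 were far above the other 4 saline libraries. A count of 0 still allows 3 reads, which is 0.226 CPM in bleomycin 1 and 0.205 CPM in bleomycin 4 (counting error only). The mean fell from 5.91 ± 6.61 CPM (SD, n = 6) to 0.105 ± 0.1495 CPM (n = 5), a ratio of 56.3. The log2 fold change was -5.65 ± 1.10 (SE; edgeR adjusted p = 0.0113). Leaving out saline 2 and 3 gave a ratio of 15.8 and a log2 fold change of -3.82 (edgeR adjusted p = 0.00917). Bleomycin 3 held 6 of the few reads, and without it the log2 fold change was -6.75. Over 20 alternative fits the adjusted p of Ifng ran from 3.29e-07 to 0.0591, and limma on log2(FPKM + 1) was the one fit in which the call was lost.

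Cxcl9 encodes a CXCR3 ligand whose induction depends closely on interferon-gamma. Its level was 39.5, 445.5, 468.9, 4.63, 81.9 and 63.8 CPM in saline 1 to 6, against 0.905, 2.12, 1.98, 6.07 and 3.90 CPM in bleomycin 1 to 5. Saline 4 lay below bleomycin 4, so the groups overlapped at that one saline library. The log2 fold change was -5.93 ± 1.13 (SE; edgeR adjusted p = 0.0104), and the mean CPM ratio was 61.4. It moved to -3.98 (edgeR adjusted p = 0.00798; ratio of 15.9) when saline 2 and 3 were left out, and to -6.43 (edgeR adjusted p = 0.00353) when saline 1 and 4 were. With any 1 library removed, Cxcl9 was still called (11 of 11 fits, from -6.34 to -5.40).

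Cxcl10 encodes another CXCR3 ligand, which type I interferons and inflammatory signals also induce. It was at 22.98, 160.8, 179.4, 4.57, 22.8 and 38.7 CPM in saline 1 to 6, and at 3.47, 6.97, 14.8, 13.3 and 21.2 CPM in bleomycin 1 to 5. Apart from saline 2 and 3, saline 5 and saline 1 were close to the highest bleomycin library, and saline 4 was below 4 of the 5 bleomycin libraries. Its log2 fold change was -2.58 ± 0.84 (SE) and was not called (edgeR adjusted p = 0.0692). The call depended on the libraries and the tool. Cxcl10 was called without saline 4 (edgeR adjusted p = 0.0363), without saline 1 and 4 (-3.05, edgeR adjusted p = 0.0267) and by DESeq2 (adjusted p = 0.00481), whereas its value was -0.89 once saline 2 and 3 were removed (edgeR adjusted p = 0.258). Over 20 alternative fits the test of Cxcl10 spanned adjusted p-values from 0.00481 to 0.258. The mouse annotation of build GRCm38 places exons of Art3 on the opposite strand over Cxcl10, and the strand setting of the counting is not given in the sources used here. Art3 was at 28.2 ± 6.29 CPM in saline and 18.6 ± 4.69 CPM after bleomycin (SD, n = 6 and 5; edgeR adjusted p = 0.0847), and without the strand setting reads of the pair cannot be told apart.

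Cxcl9 and Cxcl10 also changed places relative to each other. Per length, Cxcl9 exceeded Cxcl10 in 6 of 6 saline libraries, with FPKM ratios of 2.65, 4.27, 4.03, 1.56, 5.53 and 2.54 in saline 1 to 6. After bleomycin Cxcl9 was below Cxcl10 in every library, with ratios of 0.402, 0.469, 0.207, 0.703 and 0.284. The lowest saline ratio, in saline 4, was above the highest bleomycin ratio, in bleomycin 4, although Cxcl9 itself overlapped between the groups at saline 4. These ratios are a description, with no test. Reads of Art3 (mean 18.6 CPM after bleomycin) could not be told apart from those of Cxcl10 (3.47 to 21.2 CPM after bleomycin), which limits the ratios.

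To show the promoters of the cytokine and of the 2 chemokines beside these values, the 250 bases before the annotated start sites are printed 5′ to 3′ on the strand of each gene, from RefSeq's table on GRCm38.p6. The Ifng window lies at chr10:118440796-118441045 (plus strand), Cxcl9 at chr5:92328080-92328329 (minus strand) and Cxcl10 at chr5:92348890-92349139 (minus strand). Capitals mark matches to 3 motifs that were chosen after the sequences had been read: TTCNNNGAA, the interferon-gamma-activated site, GAAA followed after any 2 bases by another GAAA, the core of the interferon-stimulated response element, and GGGNNTTCC, a kappaB-type site.
Ifng: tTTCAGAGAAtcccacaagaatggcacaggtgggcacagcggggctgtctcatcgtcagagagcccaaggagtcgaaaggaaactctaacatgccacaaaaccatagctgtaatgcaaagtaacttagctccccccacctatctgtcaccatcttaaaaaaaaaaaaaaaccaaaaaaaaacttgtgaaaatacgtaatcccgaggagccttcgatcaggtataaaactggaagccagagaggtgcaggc
Cxcl9: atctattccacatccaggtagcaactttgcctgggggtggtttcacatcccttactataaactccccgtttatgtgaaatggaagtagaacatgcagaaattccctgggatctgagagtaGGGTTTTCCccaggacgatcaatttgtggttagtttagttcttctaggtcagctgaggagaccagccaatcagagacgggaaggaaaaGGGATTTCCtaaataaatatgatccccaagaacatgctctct
Cxcl10: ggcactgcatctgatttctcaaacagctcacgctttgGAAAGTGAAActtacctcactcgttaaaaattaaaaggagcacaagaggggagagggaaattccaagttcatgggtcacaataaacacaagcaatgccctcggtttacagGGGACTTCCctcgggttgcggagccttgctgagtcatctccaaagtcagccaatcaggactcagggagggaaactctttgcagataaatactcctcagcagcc
The Ifng window held 1 TTCNNNGAA match, at -249 to -241 from the start site. The Cxcl9 window held 2 GGGNNTTCC matches, at -130 to -122 and at -42 to -34. The Cxcl10 window held the response element core at -213 to -204 and GGGNNTTCC at -103 to -95. Both strands were searched, and no marked matches overlapped. Among 32851 mouse promoter windows of the same length, 7.02% held TTCNNNGAA, 2.98% held the response element core and 4.98% held GGGNNTTCC. The windows of Cxcr3, Cxcr6 and Xcl1 held none of the 3. A window was found for 6 of the 9 genes. These matches are letters in a window and show no binding.

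Ccl5 was the most abundant transcript of the set per length in saline. It was read at 34.6, 394.9, 359.6, 19.3, 107.4 and 48.7 CPM across saline 1 to 6 and at 6.63, 12.6, 8.18, 15.3 and 14.2 CPM in bleomycin 1 to 5. Every bleomycin library was below the lowest saline library, saline 4, by CPM. By FPKM, saline 4 and the 2 highest bleomycin libraries were at the same level (13.3 against 13.3 and 14.2 FPKM). The 2 scales differ by the TMM factors, which were 0.829 in saline 4 and 1.11 in bleomycin 4. The log2 fold change was -3.82 ± 0.80 (SE; edgeR adjusted p = 0.0157), and the ratio of mean CPM was 14.1. Fitted with the other 4 saline libraries, the log2 fold change was -2.20 (edgeR adjusted p = 0.0103) and the ratio 4.62 (saline 2 and 3 left out).

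Cxcl16 was the member whose group means differed least. Its values were 66.9, 326.6, 260.5, 57.8, 113.2 and 83.4 CPM in saline 1 to 6 and 75.9, 81.6, 78.9, 79.5 and 112.0 CPM in bleomycin 1 to 5. The 5 bleomycin libraries lay within the range of the 4 saline libraries other than saline 2 and 3. The log2 fold change was -0.82 ± 0.44 (SE; edgeR adjusted p = 0.222). It was 0.09 ± 0.21 without saline 2 and 3 (edgeR adjusted p = 0.773), so the direction of its fold change depended on those libraries, and it passed in none of 21 alternative fits. Exons of Zmynd15 overlap Cxcl16 on the opposite strand in the GRCm38 annotation. Zmynd15 was at 21.3 ± 20.7 CPM in saline and 11.95 ± 3.20 CPM after bleomycin (edgeR adjusted p = 0.410), and its reads cannot be told apart from those of Cxcl16 without the strand setting.

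Xcl1 was read at a low level. It was at 0.851, 1.82, 1.83, 0.508, 1.38 and 1.09 CPM in saline 1 to 6 (8 to 29 reads), and at 0, 0.0606, 0.361, 0.0682 and 0.156 CPM in bleomycin 1 to 5 (0, 1, 6, 1 and 3 reads). No bleomycin library reached the lowest saline library, and the largest bleomycin value was again in bleomycin 3. The log2 fold change was -3.14 ± 0.62 (SE; edgeR adjusted p = 0.0118), and -3.86 without bleomycin 3. With 1 library removed at a time, Xcl1 passed the count filter in 6 of 11 fits and was called in all 6. The filter removed it when saline 2 and 3 were left out, where the ratio of mean CPM was 7.41 in place of 9.65.

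The receptors fell as well. Cxcr3 was at 5.78, 10.7, 13.5, 2.98, 10.3 and 6.12 CPM in saline 1 to 6 and at 2.41, 2.30, 0.962, 3.07 and 2.39 CPM in bleomycin 1 to 5. Saline 4 lay between the 2 highest bleomycin libraries, and the other saline libraries were above all bleomycin libraries. Its log2 fold change was -1.88 ± 0.41 (SE; edgeR adjusted p = 0.0175), and -1.50 without saline 2 and 3 (edgeR adjusted p = 0.0272).

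Cxcr6 had the smallest adjusted p of the 8 genes. It was at 26.5, 37.5, 33.9, 14.97, 35.9 and 14.8 CPM in saline 1 to 6 and at 0.679, 2.12, 2.71, 3.61 and 4.58 CPM in bleomycin 1 to 5. The lowest saline library was well above the highest bleomycin library. The log2 fold change was -3.30 ± 0.44 (SE; edgeR adjusted p = 0.00251) with a mean ratio of 9.95, against -3.06 with saline 2 and 3 left out (edgeR adjusted p = 0.00390). Cxcr6 passed in all 20 alternative fits. Set against its ligand, the FPKM ratio of Cxcl16 to Cxcr6 was 1.71 to 5.89 in saline (median 3.21) and 14.9 to 75.6 after bleomycin (median 19.7).

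**Figure D2:**
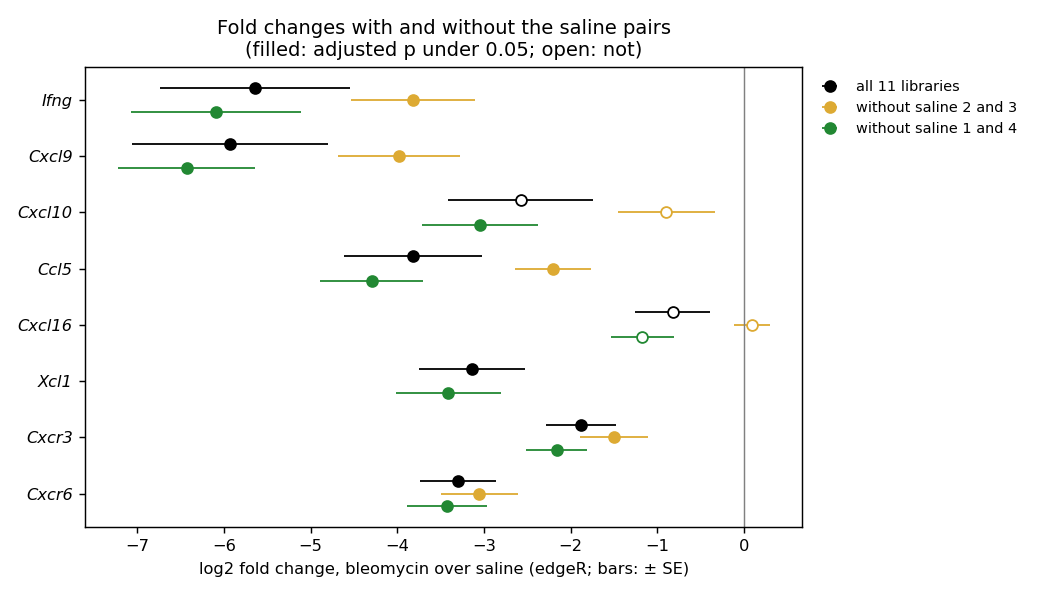
Log2 fold change of bleomycin over saline (x axis; points ± SE from edgeR) for each gene with all 11 libraries (black), without saline 2 and 3 (yellow) and without saline 1 and 4 (green), with filled points for an adjusted p under 0.05. Among the genes with a point in every fit, Cxcr6 and Cxcr3 move least. Ifng, Cxcl9, Cxcl10 and Ccl5 are nearer to 0 without saline 2 and 3, and Cxcl16 reaches 0.09 there. Xcl1 has no yellow point because the filter removed it.

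With all libraries 6 of 8 genes fell. Without saline 2 and 3, 5 of the 7 that passed the filter fell, when 9.97% of all genes were called lower. Without saline 1 and 4, 7 of 8 fell, when 4.07% of all genes were called lower. Ifng, Cxcl9, Ccl5, Cxcr3 and Cxcr6 were called in all 3 fits.

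Compared per length, the order of the transcripts differed between the groups. In saline the mean FPKM was 134.3 ± 148.0 for Ccl5, 57.2 ± 67.9 for Cxcl9, 26.6 ± 21.5 for Cxcl16 and 14.4 ± 16.1 for Cxcl10 (SD, n = 6). Lower means were found for Cxcr6 (6.83 ± 2.78 FPKM), Cxcr3 (4.62 ± 2.42 FPKM), Ifng (3.77 ± 4.34 FPKM) and Xcl1 (2.32 ± 1.13 FPKM). Ccl5 was first in 6 of 6 saline libraries, but every pair of neighbours in this order of means differed by less than the larger of their SDs. After bleomycin Cxcl16 came first in 5 of 5 libraries at 16.3 ± 3.63 FPKM, followed by Ccl5 in each at 10.3 ± 3.89 FPKM (n = 5). The rest were at 2.59 ± 1.58 FPKM for Cxcl10, 1.38 ± 0.50 for Cxcr3, 1.01 ± 0.71 for Cxcl9, 0.787 ± 0.45 for Cxcr6, 0.266 ± 0.28 for Xcl1 and 0.0708 ± 0.0985 for Ifng. Of these neighbours, Cxcl10 and Cxcr3, Cxcr3 and Cxcl9, Cxcl9 and Cxcr6, and Xcl1 and Ifng differed by less than the larger of their SDs.

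Most markers of natural killer and T cells, which carry or release several of these proteins, were also lower after bleomycin. Of 14 natural killer cell markers 12 fell and none rose (median log2 fold change -2.20), and 11 of 15 T cell markers fell and none rose (median -1.89; 7 fell by limma on log2(FPKM + 1)), against a median of -0.04 for all genes tested. Gzma, the granzyme A gene of cytotoxic lymphocytes, was at 38.2 to 232 CPM in saline and 3.69 to 12.9 CPM after bleomycin (-3.16 ± 0.51, edgeR adjusted p = 0.00547). Cd3d, a subunit of the T cell receptor complex, was at 10.7 to 40.3 and 3.37 to 7.43 CPM (-2.13 ± 0.35, edgeR adjusted p = 0.00580). Gzmb, the granzyme B gene, was at 7.30 to 41.4 and 0.905 to 4.69 CPM (-2.70 ± 0.50, edgeR adjusted p = 0.00914), and Cd2, an adhesion receptor of T and natural killer cells, had a log2 fold change of -1.04 and was not called (edgeR adjusted p = 0.145). The sum of both marker lists was 243 to 778 CPM in saline (median 456.7) and 59.1 to 150.8 CPM after bleomycin (median 108.9), without overlap. None of these markers was at 0 in any bleomycin library.

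Within each library, the 5 genes known from lymphocytes were set against that sum. Ifng had 5.00, 27.7, 24.7, 3.39, 1.77 and 5.92 CPM per 1000 CPM of T and natural killer markers in saline 1 to 6. In bleomycin 1 to 5 it had 0, 0.575, 3.31, 0 and 0.690. The bleomycin mean was 8.02% of the saline mean, or 22.8% without saline 2 and 3, and bleomycin 3 lay above saline 5. Cxcr6 had 36.9 to 74.9 per 1000 CPM in saline and 11.5 to 30.4 after bleomycin, at 40.3% of the saline mean. With all libraries it was the only gene of the 5 whose groups did not overlap. The share of all genes without overlap on this scale is not given here, so the lack of overlap is only a description. With the natural killer list alone as the base, the Cxcr6 groups overlapped. For Ccl5 the figure was 34.3% with all libraries and 97.8% without saline 2 and 3, where saline 2 and 3 had 789 and 594 per 1000 CPM and all other libraries 75.1 to 138. Xcl1 was at 42.7% and Cxcr3 at 134.7% of the saline mean, both with overlapping groups. These ratios were not tested, and neither was the part of the marker change in the fall of the genes.

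**Figure D3:**
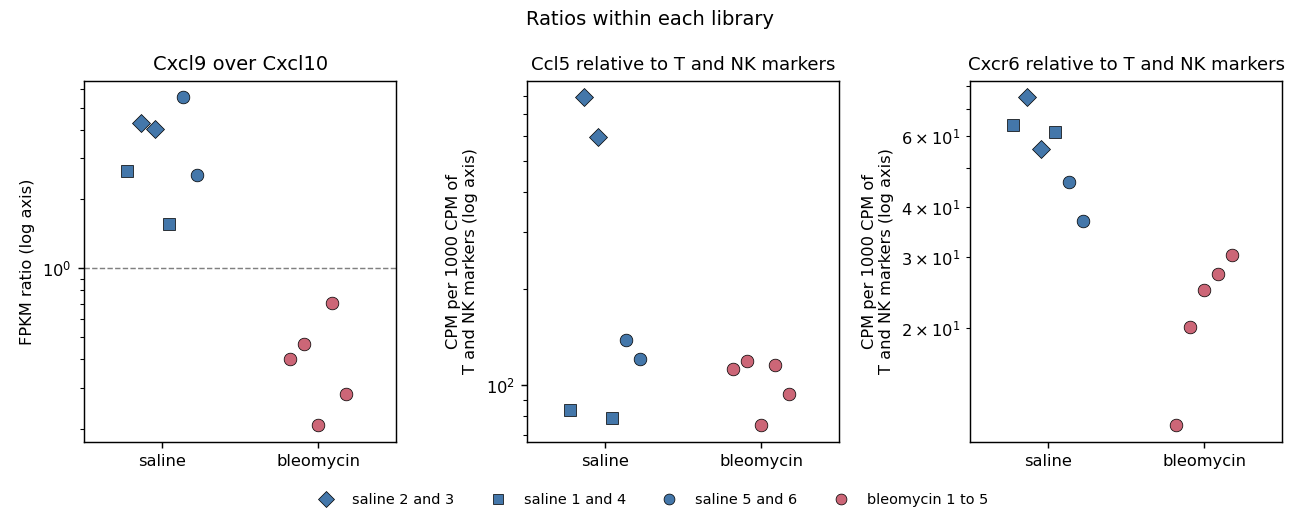
Ratios within each library on log axes: Cxcl9 over Cxcl10 in FPKM (left, dashed line at equality), and the CPM of Ccl5 (middle) and Cxcr6 (right) per 1000 CPM of summed T and natural killer cell markers. The Cxcl9 to Cxcl10 ratio is above 1 in every saline library and below 1 in every bleomycin library, Ccl5 stands out in saline 2 and 3 only, and Cxcr6 is lower in all bleomycin libraries.

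Of 20 listed genes that induce Ifng or set the lineage of the cells that make it, 18 were tested, 10 fell and none rose, with a median log2 fold change of -1.20. Tbx21, the T-bet transcription factor that drives Ifng transcription, was at 2.92 to 10.4 CPM in saline and 0.905 to 2.05 CPM after bleomycin (-2.47 ± 0.36, edgeR adjusted p = 0.00349). Il12b, the p40 subunit of interleukin-12 and interleukin-23, was at 0.635 to 2.68 and 0 to 0.477 CPM (-2.81 ± 0.61, edgeR adjusted p = 0.0183). Il12rb1, a subunit of the receptor of both cytokines, was at 2.35 to 25.99 and 0.377 to 1.72 CPM (-3.37 ± 0.76, edgeR adjusted p = 0.0204), and its adjusted p reached 0.0546 when 1 library was left out. Its log2 fold change was -1.78 without saline 2 and 3 (edgeR adjusted p = 0.0180), where the filter removed Il12b. The abundant Il18r1, a receptor subunit for interleukin-18, and Il2rg, the common gamma chain, had log2 fold changes of -0.25 and -1.20 and were not called (edgeR adjusted p = 0.406 and 0.183). The count of 10 fell to 4 when bleomycin 3 was left out, to 5 without bleomycin 2 and to 6 without saline 3, bleomycin 4 or bleomycin 5. It was 5 with total-count scaling and 4 with either limma fit.

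Of 15 genes of the interferon-gamma receptor and its signalling, all tested, 4 fell and none rose (median -0.41). They included Irf1, Irf8 and Socs1. The count was 7 by DESeq2 and 2 with either limma fit. Irf8, a transcription factor of myeloid cells, had a log2 fold change of -1.94 ± 0.33 (edgeR adjusted p = 0.00670), and of -1.33 without saline 2 and 3 (edgeR adjusted p = 0.00194). Socs1, the feedback inhibitor of the pathway, was at -2.86 ± 0.74 (edgeR adjusted p = 0.0329), and its adjusted p reached 0.0809 when 1 library was left out. With saline 2 and 3 left out Socs1 was at -1.15 (edgeR adjusted p = 0.0416). Ifngr1, the ligand-binding receptor chain, was at 132.5 to 250.7 CPM in saline and 113.5 to 293 CPM after bleomycin, with a log2 fold change of 0.03 ± 0.25 (edgeR adjusted p = 0.944). Socs3, a feedback inhibitor of interleukin-6-type signalling, was at 0.68 with all libraries (edgeR adjusted p = 0.365), and it rose without saline 2 and 3 (1.62, edgeR adjusted p = 0.0117).

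Of 32 genes known to be induced by interferon-gamma, all tested, 23 fell and none rose, with a median log2 fold change of -2.26. Without saline 2 and 3, 21 fell and 1 rose (median -1.43), and without saline 1 and 4, 28 fell (median -2.63). The count was 14 when bleomycin 2 was left out. Ubd, a ubiquitin-like modifier, was at 2.73 to 122.7 CPM in saline and 0 to 0.818 CPM after bleomycin (-7.22 ± 1.29, edgeR adjusted p = 0.00799). The guanylate-binding protein genes Gbp4 and Gbp5, which act against intracellular pathogens, were at -3.80 ± 0.55 and -3.96 ± 0.75 (edgeR adjusted p = 0.00349 and 0.0101). All 3 were nearer to 0 but still called without saline 2 and 3, with Ubd at -5.19, Gbp4 at -3.10 and Gbp5 at -2.34 (edgeR adjusted p = 0.00620, 0.00291 and 0.00197). H2-Aa, an MHC class II chain, fell by 2.78 on the log2 scale (edgeR adjusted p = 0.0113), and by 2.03 without saline 2 and 3 (edgeR adjusted p = 0.0116). Cd74, the invariant chain that travels with class II, was at -2.22 ± 0.75 and was not called with all libraries (edgeR adjusted p = 0.0770). Cd74 was called without saline 1 and 4 (-2.69, edgeR adjusted p = 0.0317) and was at -0.75 without saline 2 and 3 (edgeR adjusted p = 0.283). Icam1, an adhesion molecule of endothelium, was named after its values were seen as the one listed gene that rose without saline 2 and 3 (1.72, edgeR adjusted p = 0.00764). With all libraries its log2 fold change was 1.13 (edgeR adjusted p = 0.0702).

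Of the other receptors, decoys and proteases that act with these chemokines, 12 of 14 listed genes were tested and 1 fell. It was Xcr1, the receptor of XCL1 on cross-presenting dendritic cells, at 13.9 to 19.99 CPM in saline and 0.302 to 2.13 CPM after bleomycin (-3.53 ± 0.42, edgeR adjusted p = 0.00175). Clec9a, another marker of those dendritic cells, was at 37.6 to 61.5 and 14.5 to 47.4 CPM and was not called (-0.39 ± 0.26, edgeR adjusted p = 0.316). Clec9a did not stand for its list, since 9 of the 14 dendritic cell markers fell and none rose. Itgae (-2.33, edgeR adjusted p = 0.00123) and Wdfy4 (-1.60, edgeR adjusted p = 0.00218) were among the 9. The heparan sulphate proteoglycan genes Sdc1 and Sdc4, of the syndecan family, had log2 fold changes of 0.30 and 0.08 and were not called with all libraries (edgeR adjusted p = 0.229 and 0.868). Sdc4 rose without saline 2 and 3 (0.61, edgeR adjusted p = 0.0175). The median over the 12 genes was -0.26, and the count that fell was 2 without saline 1 and 4 and 3 without saline 6 or by DESeq2.

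**Figure D4:**
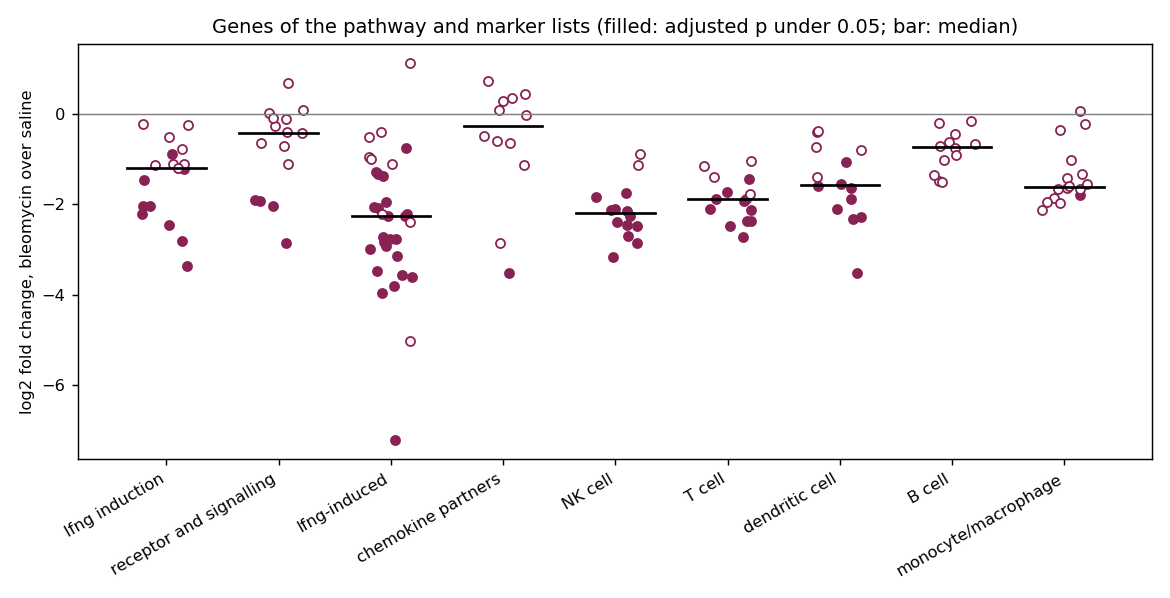
Log2 fold change of bleomycin over saline (y axis) for each tested gene of the pathway and cell type lists (x axis), with filled points for an adjusted p under 0.05 and a bar at the median of each list. The medians are lowest for interferon-gamma-induced genes (-2.26) and natural killer cell markers (-2.20), and most chemokine partners lie around 0, with Xcr1 lowest (-3.53).

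Monocyte and macrophage markers, which mark one source of Cxcl9, Cxcl10 and Cxcl16, had a median log2 fold change of -1.62 over 16 genes, of which 1 fell. That median was -0.23 without saline 2 and 3 (1 fell) and -2.03 without saline 1 and 4 (5 fell). The count was 2 without bleomycin 1, 4 without saline 6 and 7 by DESeq2. Of 14 dendritic cell markers 9 fell (median -1.58), and of 12 B cell markers none fell (median -0.72; 1 by DESeq2). Neutrophil markers were in the table for 4 of 13 listed genes, and none of the 4 was called with all libraries (1 fell without saline 3, and 1 without saline 2 and 3). Among markers of structural cells, 3 of 12 epithelial, 2 of 8 endothelial and 1 of 8 fibroblast genes rose and none fell. The epithelial count was 3 in both fits without a saline pair. The endothelial and fibroblast counts were both 0 without saline 1 and 4 and without bleomycin 2, 4 or 5, and 1 and 0 without saline 1, 3 or 4. No fibroblast gene rose without saline 2, 2 rose without saline 5, and 1 fell without saline 6 or bleomycin 1. Of 6 genes listed for thymocytes, 2 were in the table. Themis, which mature T cells also express, fell (-2.47, edgeR adjusted p = 0.00661). Cd1d1 was not called with all libraries (-1.87, edgeR adjusted p = 0.0639). Both fell without saline 1 and 4, without saline 6 or by DESeq2. Their sum was 97.6 and 71.4 CPM in saline 2 and 3, against 16.9 to 22.8 in the other saline libraries. These 2 genes alone do not show thymocytes.

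The genes whose pattern was most like that of a member were ranked by the root mean square difference of centred log2 CPM over the 11 libraries, as a description. Closest to Ifng were Slamf8 (0.51), Gbp10 (0.58), Gbp5 (0.63), Gbp8 (0.65) and Ly6i (0.70). With a prior count of 5 in place of 2, which weighs the low reads of Ifng less, 2 of these stayed among the 5 closest (Gbp8 and Gbp5), joined by Cd274, Gbp2 and Gbp6. Slamf8, a SLAM family receptor of myeloid cells, was at 7.11 to 151.8 CPM in saline and 0.679 to 1.80 CPM after bleomycin. Closest to Cxcl9 were Ubd (0.76), Calhm6 (0.80), Slamf8 (0.86), Dnase1l3 (0.88) and Ly6i (0.88). Closest to Ccl5 were Calhm6 (0.47), Il12rb1 (0.47), Lair1 (0.50), Ccl4 (0.50) and Cd274 (0.50). Ccl4, another CC chemokine, was at 1.78 to 34.4 CPM in saline and 0.750 to 0.989 CPM after bleomycin. Cd274, which encodes the checkpoint ligand PD-L1, was at 22.7 to 406.6 and 7.84 to 16.7 CPM. Without saline 2 and 3, the 5 closest to Ccl5 shared 0 genes with these and were Gzmk, Ms4a4b, Klrb1c, Ncr1 and Cd3g. For Ifng, 1 of the 5 was shared, Slamf8, and the others were Klra8, Gbp4, Ido1 and Klre1. Closest to Cxcl16 were Ptk2b (0.11), Plcg2 (0.16), Impa2 (0.17), Chst11 (0.17) and Apoe (0.18), none of them called. Of these, 2 stayed among the 5 closest without saline 2 and 3 (Ptk2b and Apoe), joined by Ier3, Ehd3 and Acer2. With a prior count of 5, 3 of the 5 closest to Ccl5 stayed.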

How the data were processed

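Polyadenylated RNA of whole lung was captured, dUTP was added in second-strand synthesis, and paired reads were sequenced (Illumina NovaSeq), as the labels' protocols state. FastQC, HTSeq 2.0.2 and HISAT2 2.2.1, with build GRCm39, appear in the submitters' processing notes. The deposited table gives whole-number read counts, not normalized, and FPKM values that the authors scaled to gene length and library reads. Of its rows, 3 carried no symbol and 2 shared one, and each gene had a read in at least 5 libraries.

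Samples were grouped by their titles. Counts were tested with edgeR 4.0.16 in R 4.3.3 (filterByExpr with a count minimum of 10, TMM factors of 0.829 to 1.07 in saline and 0.968 to 1.13 in bleomycin, two-sided quasi-likelihood test, Benjamini-Hochberg adjustment at 0.05 over 14478 genes). The fit was first tested on simulated counts with known folds, the same spread for every gene and no uneven saline libraries. That run checks the code and does not cover the uneven saline group or genes with few reads, such as Ifng and Xcl1. The SE is the absolute log2 fold change over the square root of F. Alternatives were DESeq2 1.42.0, limma 3.58.1 on log2(FPKM + 1) and log2(FPKM + 0.1), median-ratio and total-count scaling, no filter, a stricter filter (5 libraries at 5 FPKM or above), a replicate block, and fits without libraries. The genes, lists and left-out pairs were chosen with earlier results of these data known. Genes named from the pathway lists are up to 3 with the largest called change and the 2 with the highest mean FPKM. For cell type lists only the latter 2 were picked, and not all of these are named in the text. For Ifng, Cxcl9, Ccl5 and Cxcl16, the 5 most similar genes are named (prior count of 2), leaving out members, predicted genes and receptor segments. A gene that these rules pick is not reported here. Irf1, Icam1, Itgae, Wdfy4, Clec9a and Themis are named for the counts they explain or for their roles, some after their values were seen. Of these, Clec9a and Themis were also picked by mean FPKM.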

Additional observations from a re-analysis of the deposited data

Results flagged for a closer look

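In bleomycin 3, Ifng was at 0.361 CPM, far from the other bleomycin libraries (0 to 0.104 CPM) for the range of that group. In bleomycin 5, Cxcl16 was at 112.0 CPM, while the other bleomycin libraries were between 75.9 and 81.6 CPM. Both were found among 16 groups of values (8 genes in 2 conditions), and chance marks about 1 in 20 such groups. For Ifng that rate need not hold, since its values rest on 0, 1, 6, 0 and 2 reads in bleomycin 1 to 5.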

How the results depend on the processing

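The log2 fold changes of Ifng, Cxcl9, Ccl5, Xcl1, Cxcr3 and Cxcr6 were negative in every alternative that gave a value, and Cxcr6 and Xcl1 passed the threshold in each of them. The direction of Cxcl16 reversed without saline 2 and 3 (0.091). Cxcl10 passed with DESeq2 (-2.57) and without saline 1 and 4 (-3.05). Ifng did not pass with limma on log2(FPKM + 1) (-1.66). Same-numbered libraries correlated at -0.189 to 0.014 in their deviations from the group means, so they did not deviate together. Whether same-numbered samples were handled together cannot be told from these correlations. With a replicate block Cxcl9 (-5.40), Cxcr3 (-1.86) and Ccl5 (-3.26) did not pass. In that fit 3 of 8 members (1.69% of all genes lower) and 19 list genes were called, and 513 genes changed in all. The other counts of changed genes, 1496 with all libraries, were 732 with the stricter filter, 2923 with DESeq2, 2778 without saline 2 and 3, and 876 without saline 1 and 4. With the stricter filter 3 members were tested and 2 called. Of the 4 pathway lists, 38 genes were called in the main test, 19 with the stricter filter, 24 with limma on log2(FPKM + 1) and 25 with log2(FPKM + 0.1). For single lists, the block left 2 of the genes that induce Ifng (10 in the main test), 13 of the induced genes (23), 7 natural killer (12) and 7 T cell (11) markers. Relative to T and natural killer markers, bleomycin was 22.8% (Ifng) and 97.8% (Ccl5) of saline without saline 2 and 3, and 25.1% (Ccl5) without saline 1 and 4. The cause of these differences was not tested.

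With 1 library left out, 557 (without bleomycin 2) to 2118 (without saline 6) genes changed. The count was 863 without saline 1, 765 without bleomycin 3, 627 without bleomycin 4 and 621 without bleomycin 5. Between 5 and 7 members and 23 (without bleomycin 2) to 43 list genes were called. Log2 fold changes ran from -6.75 to -5.12 (Ifng), -6.34 to -5.40 (Cxcl9), -2.89 to -2.06 (Cxcl10), -4.05 to -3.32 (Ccl5), -0.99 to -0.44 (Cxcl16), -3.86 to -2.87 (Xcl1), -2.06 to -1.67 (Cxcr3) and -3.57 to -3.06 (Cxcr6). Total-count scaling moved the median of all genes from -0.04 to 0.14, with 894 higher and 380 lower calls in place of 671 and 825, and the same 6 members were called. Depth limits Ifng and Xcl1 most, with 9 and 11 reads over the 5 bleomycin libraries.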
